A study of Mus musculus with 17 samples.

Results

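The lipid-associated macrophage genes described here are Trem2, Tyrobp, Spp1, Gpnmb, Cd9, Cd63, Lgals3, Fabp5 and Mmp12. They were chosen by name, as a list of 9 among the 17555 gene names of the tumor cell, TRMs and MDMs tables, with earlier results of these data known and by a rule that uses no measured value. All 9 were listed in each table and all 9 passed the filter on low values there (1 RPKM in at least 2 libraries), which Trem2 and Mmp12 reached in tumor cells through the KLG4 libraries alone. The libraries were made from cells that had been sorted out of mouse lung tumors, 10 weeks after intranasal Ad-Cre and with tamoxifen given to both genotypes. Both genotypes carried Lkb1 fl/fl, and KLG4 mice carried in addition Gpx4 m/m, an allele whose exons are removed by a tamoxifen-activated Dre recombinase that is expressed only after Cre has acted. The Gpx4 deletion was therefore aimed at cells that Ad-Cre had reached. TRMs and MDMs are macrophage populations under the abbreviations that the labels give them. Each population had 2 KL and 2 KLG4 libraries, 12 libraries in 6 groups, and the study describes those of tumor cells as coming from separate mice. For TRMs and MDMs the labels do not say whether each library came from a separate animal. Tumor cell libraries each held transcripts of both sexes, which cells of a single mouse would not give. In every population p-values therefore measure the spread between these samples, which may in part be technical.

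Lipid-associated macrophages are macrophages that take up lipid and cell debris in fat tissue, in plaques and in tumors, and that share a transcript program with microglia around damaged neurons. TREM2, a surface receptor for lipids and lipoproteins, signals through TYROBP, an adaptor that carries an activation motif and recruits the kinase SYK. Cells with this program commonly express osteopontin (Spp1), a secreted phosphoprotein that binds integrins and CD44, the lysosomal glycoprotein GPNMB, the tetraspanins CD9 and CD63, galectin-3 (Lgals3), the fatty acid chaperone FABP5 and the macrophage elastase MMP12. Several of these proteins are not restricted to macrophages. Lung epithelium also makes tetraspanins, galectin-3 and FABP5, and carcinoma cells often secrete osteopontin.

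Genes are given with their position in GRCm38 as the deposited tumor cell table has it, and exons and transcripts were taken from a GENCODE annotation of that build, whose start and end are the same for all members but Cd63. Trem2 lies at chr17:48346401-48354147 on the plus strand, Tyrobp at chr7:30413760-30417585 (+), Spp1 at chr5:104435118-104441050 (+), Gpnmb at chr6:49036546-49070929 (+), and Cd9 at chr6:125460266-125494791 on the minus strand. Cd63 lies at chr10:128908919-128912816 (+), Lgals3 at chr14:47367751-47386160 (+), Fabp5 at chr3:10012548-10016607 (+) and Mmp12 at chr9:7344381-7369499 (+). All 9 are protein-coding, and reads were counted over all annotated exons without regard to strand. Spp1 shares 309 exonic bases with Gm42793, Cd9 shares 218 with Gm26728 and Mmp12 shares 157 with Mmp1b, so reads in those stretches cannot be assigned to one gene or the other. The counted exon length was longer than the principal transcript for 8 of the 9, by 4.55 times for Trem2 and 3.61 times for Fabp5, which lowers their RPKM (reads scaled to the counted exon length in kilobases and to the counted reads of the library) relative to shorter gene models. Levels are therefore compared between genes only per counted exon length, and the fold changes of a gene are not touched by this.

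RefSeq promoter windows of GRCm38.p6, the 250 bases before an annotated start, were found for 7 of the 9 members and not for Tyrobp or Fabp5. Those of Trem2, Spp1, Gpnmb and Mmp12 are shown because the KLG4 values of these genes all exceeded the KL values in tumor cells and in TRMs. The motifs searched on both strands were GAGGAA, the core that PU.1 (Spi1) recognises, TGANTCA, the AP-1 site, and CACGTG, the E-box bound by the MITF and TFE factors. In these windows no match overlapped another, and capitals mark the matches on either strand. The windows read 5′ to 3′ on the plus strand, which is the coding strand of all 4 genes.
Trem2, chr17:48346151-48346400 (+): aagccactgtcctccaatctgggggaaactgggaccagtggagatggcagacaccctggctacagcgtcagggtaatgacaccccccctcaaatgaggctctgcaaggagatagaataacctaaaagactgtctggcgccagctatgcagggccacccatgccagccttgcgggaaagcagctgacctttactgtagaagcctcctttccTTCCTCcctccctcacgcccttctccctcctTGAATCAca
Spp1, chr5:104434861-104435110 (+): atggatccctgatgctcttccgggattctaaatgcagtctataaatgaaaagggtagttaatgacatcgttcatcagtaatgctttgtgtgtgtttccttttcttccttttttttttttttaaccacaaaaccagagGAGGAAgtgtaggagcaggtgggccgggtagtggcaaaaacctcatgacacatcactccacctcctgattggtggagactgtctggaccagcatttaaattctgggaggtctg
Gpnmb, chr6:49036268-49036517 (+): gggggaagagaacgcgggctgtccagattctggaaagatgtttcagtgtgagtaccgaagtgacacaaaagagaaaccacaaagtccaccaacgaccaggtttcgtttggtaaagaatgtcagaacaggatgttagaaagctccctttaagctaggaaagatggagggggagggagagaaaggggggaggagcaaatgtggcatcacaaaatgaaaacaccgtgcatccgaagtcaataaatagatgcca
Mmp12, chr9:7344147-7344396 (+): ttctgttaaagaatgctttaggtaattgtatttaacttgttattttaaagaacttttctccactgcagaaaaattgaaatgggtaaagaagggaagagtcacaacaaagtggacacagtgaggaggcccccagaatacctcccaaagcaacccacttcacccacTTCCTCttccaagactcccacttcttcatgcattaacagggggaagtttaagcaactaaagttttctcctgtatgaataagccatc

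The Trem2 window held an AP-1 letter match 9 bases before the start and a GAGGAA match 40 bases before it. The Spp1 window held GAGGAA 113 bases before the start and the Mmp12 window 86 bases before it, and the Gpnmb window held none of the motifs. Spp1 and Mmp12 each have a further window at a later start, of which that of Spp1 held no match and that of Mmp12 held TGANTCA 44 bases before its start and no GAGGAA. Cd63, which was called in no population, held GAGGAA at 244 and 59 bases before its start. Among the members, CACGTG was in none of the 9 windows. Of all 32851 RefSeq windows of this length, 23.3% held GAGGAA, 6.75% TGANTCA and 6.02% CACGTG. A letter match is a description of the sequence and not a binding site.

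Library checks bear on how member values can be read. Recovered depth ran from 9.14 to 36.6 M counted reads. Mitochondrial reads took 14.8% and 14.7% in KLG4 tumor cells against 7.38% and 8.26% in KL, and 0.921% and 1.33% in KLG4 MDMs against 2.75% and 7.31% in KL. Rescaled to reads outside mitochondrial genes, 5 members were called in tumor cells and 0 in MDMs, as without the rescaling. Gpx4 itself, counted over all its exons, fell in tumor cells, to 56.4 and 61.9 RPKM in KLG4 from 95.0 and 76.8 RPKM in the KL libraries (log2 fold change -0.53, limma adjusted p = 0.036). In TRMs the KLG4 values of Gpx4 were 53.8 and 57.0 RPKM and the KL values 89.8 and 88.2 RPKM (log2 fold change -0.68, adjusted p = 0.070), and in MDMs at 93.6 and 97.7 against 44.9 and 71.3 RPKM (0.76, adjusted p = 0.679). The 2 KLG4 tumor cell libraries were much more alike than any other replicate pair, with a chi-square of 3.28 per gene against 28.9 to 131.5 elsewhere, so member calls are also given with this pair averaged to 1 sample. Alveolar macrophage markers such as Chil3 and Marco summed to between 8606 and 12915 RPKM in TRMs and to between 1258 and 2329 RPKM in MDMs. The list of monocyte-derived macrophage markers (Cd14, C1qa, Ccr2 and others) summed to between 728.4 and 948.7 RPKM in MDMs. In TRMs the sum lay between 155.8 and 268.2 RPKM. The median gene of this list ranged from 3.22 to 7.36 RPKM over the TRMs libraries. In MDMs it was 27.4 RPKM in KL replicate 2 and between 4.77 and 5.93 RPKM elsewhere. Apart from that library, the populations thus differed in the sum of the list and not in its median gene. MDMs libraries also held much neutrophil RNA, as the neutrophil list (S100a9, S100a8, Csf3r, Cxcr2 and others) summed to between 10705 and 23636 RPKM there against 86.1 to 229.2 RPKM in TRMs. KL replicate 2 of MDMs stood apart, with the monocyte and macrophage receptor Cx3cr1 at 42.0 RPKM against 5.07 to 7.23 RPKM in the other 3 libraries and Xist at 0.839 against 19.4 to 21.8 RPKM. Each of the 4 tumor cell libraries held both Xist, at 4.17 to 6.18 RPKM, and Y-linked Eif2s3y, at 7.27 to 9.26 RPKM. These are transcripts of both sexes, so a tumor cell library cannot be taken as a single mouse. In TRMs, KLG4 libraries had Xist at 18.3 and 20.2 RPKM and KL libraries at 0.257 and 0.501 RPKM, and Eif2s3y at 0 in both KLG4 and 12.3 and 14.7 RPKM in KL, so genotype and sex cannot be told apart in that population.

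In tumor cells, the members with a mainly macrophage distribution and Spp1 were higher in KLG4, and the 4 other members, which epithelium also makes, did not pass the test. Trem2, Tyrobp, Spp1, Gpnmb and Mmp12 rose by between 1.58 and 3.51 on the log2 scale, and Cd9, Cd63, Lgals3 and Fabp5 had differences between -0.26 and 0.11. Here "rose" and "fell" are used of a limma adjusted p under 0.05, taken over all 13770 genes tested in the table. By that rule 5 of the 9 members rose and 0 fell, in a table where 40.3% of all genes were called, 20.6% higher and 19.6% lower in KLG4. Both KLG4 libraries were above both KL libraries for 5 members (32.5% of all genes) and below for 1 member (42.2%). The median member difference was 1.58 against -0.09 for all genes.

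The receptor and its adaptor both rose in tumor cells. Trem2 was at 1.70 and 1.40 RPKM in KLG4 against 0.193 and 0.241 RPKM in KL, the latter resting on 35 and 36 reads. Tyrobp was at 60.5 and 66.9 RPKM in KLG4 against 4.14 and 7.29 RPKM in KL. The groups did not overlap for either gene, and every KLG4 library exceeded every KL library several-fold. Trem2 rose by 2.37 ± 0.26 (SE, n = 2 and 2) on the log2(RPKM + 0.1) scale, with an adjusted p of 0.0018 by limma, and Tyrobp by 3.51 ± 0.27, with an adjusted p of 6.85e-04. The fitted Trem2 fold of 5.19 understates the ratio of the mean RPKM, 7.13, because the added 0.1 is not small beside the KL values. Since Trem2 and Mmp12 passed the filter through KLG4 alone, they were also fitted without it, with an adjusted p of 0.0011 and 0.0014 by limma over all listed genes.

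Of the secreted members, Mmp12 and Spp1 rose and Lgals3 did not pass the test. Mmp12, which degrades elastin, was at 2.58 and 2.76 RPKM in KLG4 and at 0.166 and 0.375 RPKM in KL. It rose by 2.96 ± 0.34 (limma adjusted p = 0.0021). Spp1 was abundant in both genotypes, at 297.2 and 298.8 RPKM in KLG4 against 118.9 and 83.6 RPKM in KL. Both KLG4 values lay above both KL values, and the rise of 1.58 ± 0.19 had an adjusted p of 0.0023. Lgals3 was at 88.8 and 98.4 RPKM in KLG4 and at 141.0 and 89.3 RPKM in KL, where KL replicate 1 was the high library and replicate 2 lay between the KLG4 values. Its difference of -0.26 ± 0.23 had an adjusted p of 0.401 and a 95% interval from -0.84 to 0.32.

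Gpnmb, the lysosomal and surface glycoprotein, was at 4.81 and 4.24 RPKM in KLG4 tumor cells against 0.579 and 1.35 RPKM in KL. It rose by 2.22 ± 0.38 (limma adjusted p = 0.0084), and the groups did not overlap. The KL libraries differed from each other by more than the KLG4 libraries did. With the KLG4 pair averaged to 1 sample, the adjusted p of Gpnmb was 0.082, and it was 0.086 and 0.075 without KLG4 replicate 1 or 2. Trem2, Tyrobp, Spp1 and Mmp12 stayed under the threshold with the pair averaged, with an adjusted p of 0.018, 0.017, 0.048 and 0.029.

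The tetraspanins and Fabp5 were high in tumor cells of both genotypes. Cd9 was at 125.2 and 124.0 RPKM in KLG4 and at 151.0 and 125.4 RPKM in KL (log2 difference -0.14 ± 0.13, limma adjusted p = 0.426). Cd63, a marker of late endosomes and exosomes, was at 157.1 and 139.9 RPKM in KLG4 against 154.7 and 124.7 RPKM in KL (0.09 ± 0.15, adjusted p = 0.645). Fabp5 was at 82.4 and 78.7 RPKM in KLG4 and at 95.4 and 58.4 RPKM in KL (0.11 ± 0.24, adjusted p = 0.742). For Cd63 and Fabp5 the KLG4 values lay within or across the KL range, and for Cd9 both lay just below it. The KL replicates differed for these genes. Without KL replicate 2, Cd9 (-0.28), Lgals3 (-0.59) and Fabp5 (-0.24) were called lower in KLG4, with an adjusted p of 0.0098, 0.0041 and 0.028, whereas without KL replicate 1 Fabp5 was called higher (0.46, adjusted p = 0.0046). Such fits take their spread from the closely alike KLG4 pair alone, so their p-values set a difference between samples against a small error. Cd63 was called in neither (adjusted p = 0.569 and 0.064).

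**Figure D1:**
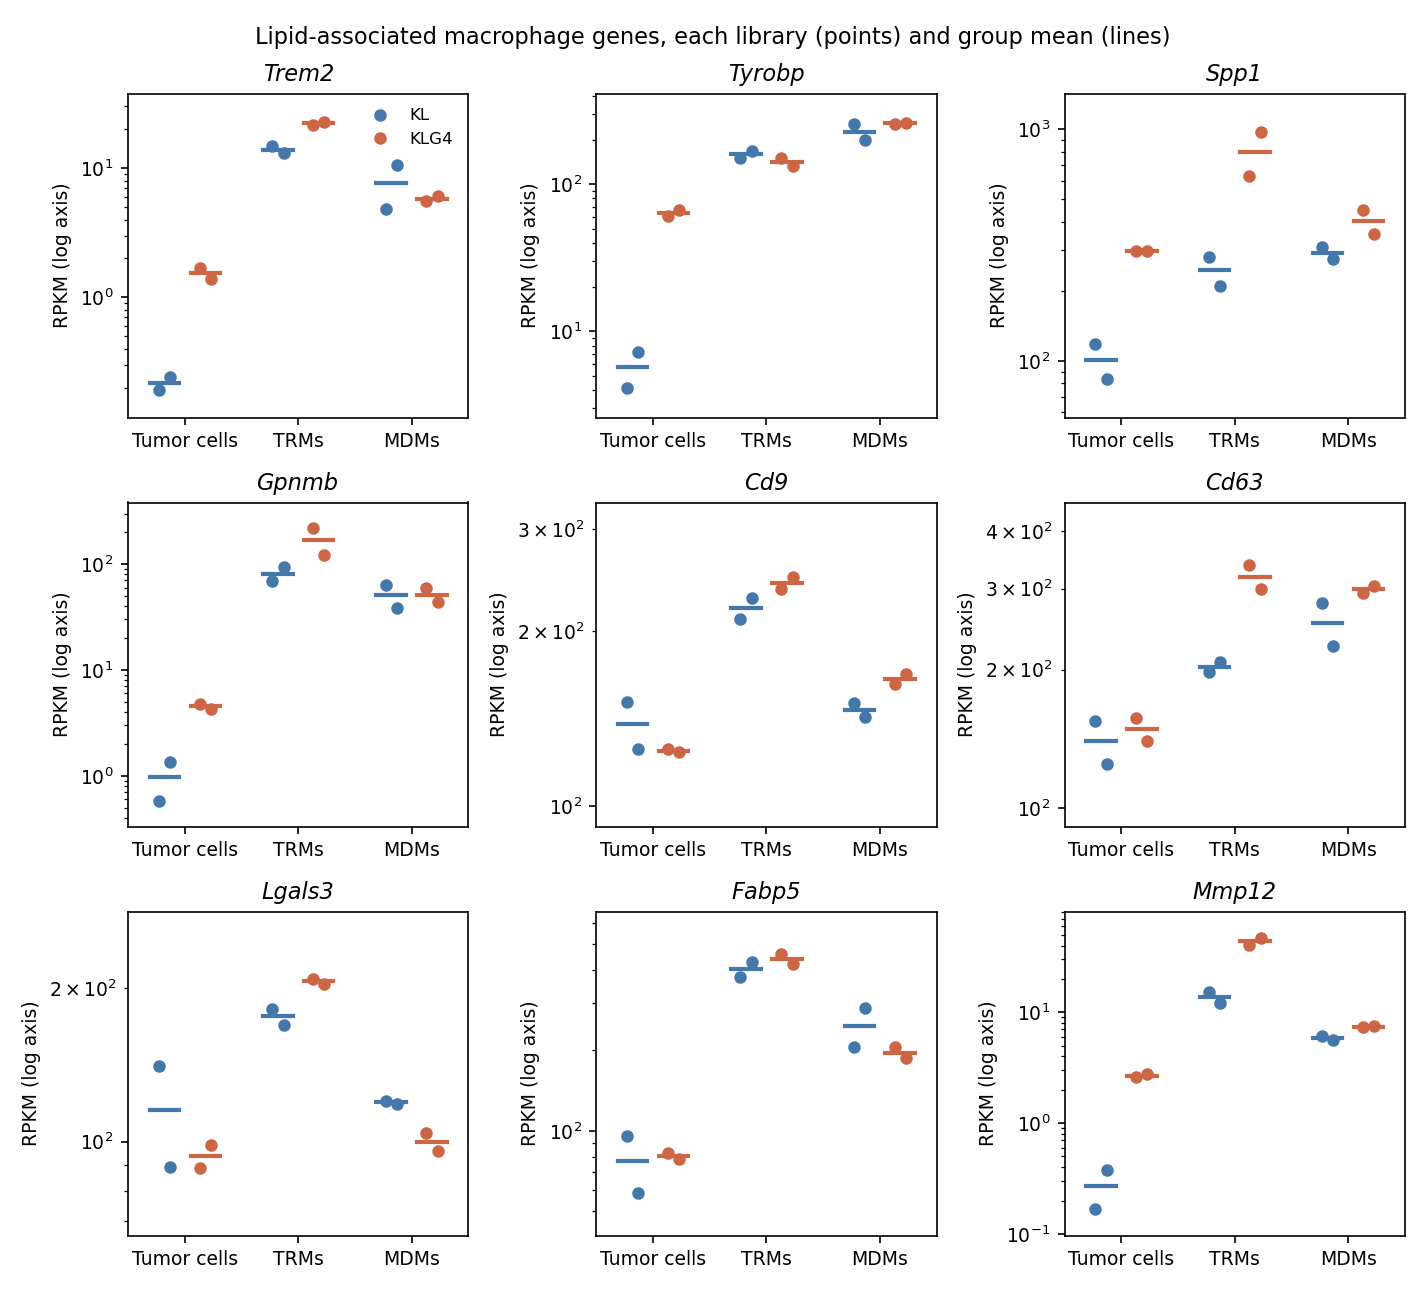
RPKM of each member in each library on a log axis, by population (x axis) and genotype (blue KL, orange KLG4), with points for libraries and short lines for group means. In tumor cells Trem2, Tyrobp, Spp1, Gpnmb and Mmp12 separate by genotype, and in TRMs Spp1 and Mmp12 do so most widely.

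Macrophage RNA itself differed between the tumor cell libraries. All 10 of 10 macrophage markers (Ptprc, Csf1r, Adgre1, Cd68, Aif1, Fcer1g, Laptm5, Mrc1, Itgb2 and Ctss) were called higher in KLG4, with a median log2 difference of 3.17, and their geometric level was 23.2 and 22.4 RPKM in KLG4 against 2.23 and 3.56 RPKM in KL. Their summed level was 487.1 and 484.2 RPKM in KLG4 against 52.3 and 85.3 RPKM in KL, and none was at 0 in any library. Lists of other cells moved too. T cell genes were called higher for 9 of 9 tested, fibroblast genes for 9 of 10 and neutrophil genes for 6 of 7. Epithelial genes were called lower for 9 of 10. Of all genes 20.6% were called higher and 19.6% lower. Cd4, Cd3d and Cd3g reached the filter on low values through the KLG4 libraries alone, and without it 10 of 10 T cell genes were called higher. With the KLG4 pair averaged to 1 sample, the 10 macrophage, 9 T cell, 9 fibroblast and 6 neutrophil calls stood, and 0 of the 10 epithelial genes were called. Of the neutrophil list, whose cells also express Tyrobp, the sum was 2764 and 2687 RPKM in KLG4 against 629.1 and 598.2 RPKM in KL. The study's gate for tumor cells, CD45-CD31-EpCAM+, would remove leukocytes and endothelium. In sorted bulk libraries a larger number of cells of a type and more RNA per cell cannot be told apart, and the part of these cells in the member differences was not tested.

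Member levels were set beside the macrophage markers of the same library. Mmp12 was at 11.6% and 12.7% of the marker level in the KLG4 tumor cells and at 11.9% and 13.3% in the KL ones, so the 4 libraries spanned a narrow range. Trem2 was at 7.74% and 6.67% in KLG4 and at 13.1% and 9.57% in KL, and Gpnmb at 21.2% and 19.4% against 30.4% and 40.8%. Tyrobp was at 261.1% and 298.5% in KLG4 and at 189.5% and 207.6% in KL. On this relative scale the log2 difference between the genotypes was -0.054 for Mmp12, -0.64 for Trem2, -0.80 for Gpnmb and 0.49 for Tyrobp, where the scaling itself moved the median of all genes to -3.11. The remaining members stood far above the markers in the KL tumor cells, where Cd9 was at 6762% and 3527%, Cd63 at 6928% and 3506% and Lgals3 at 6314% and 2513% of the marker level. In TRMs the same 3 genes were at between 149.9% and 278.5%, and Fabp5 at between 330.4% and 505.2%. Spp1 was at 5327% and 2354% in the KL tumor cells, at 1281% and 1332% in the KLG4 tumor cells and at no more than 770.7% in any macrophage library. The relative log2 difference of Spp1 was -1.44.

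**Figure D2:**
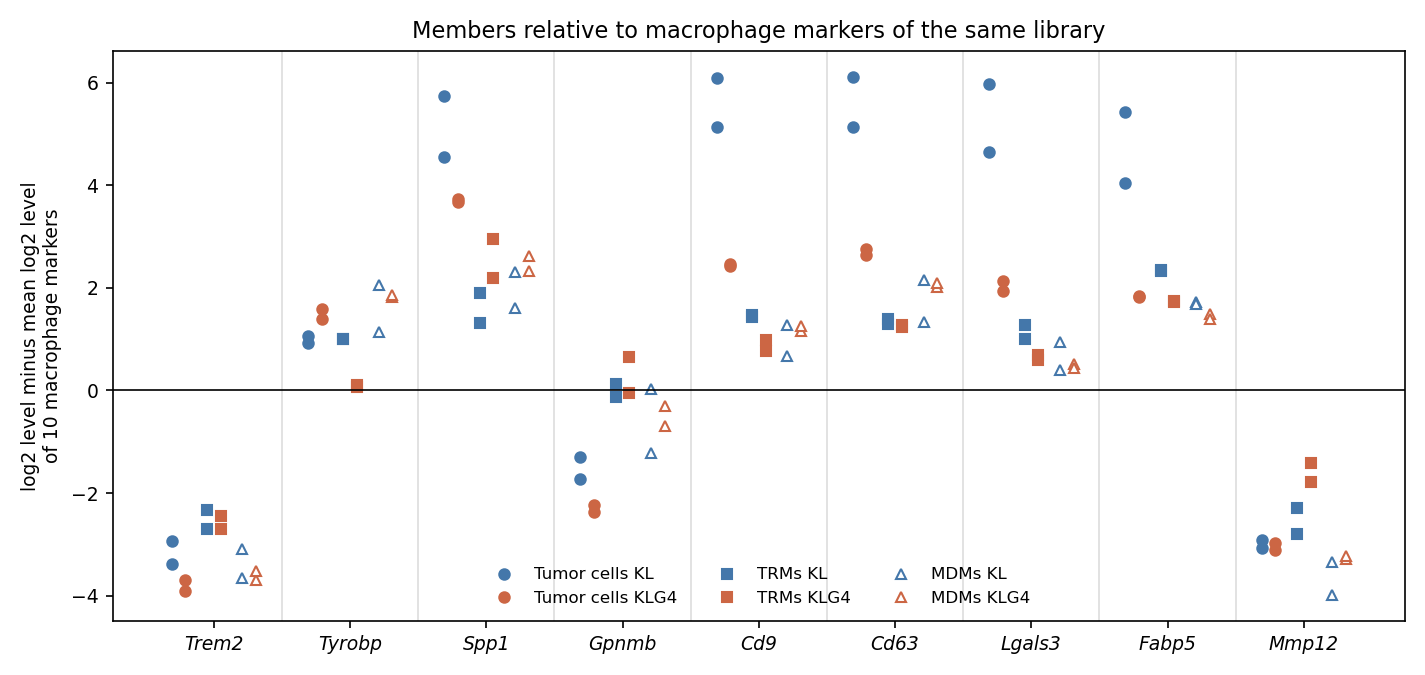
Log2 level of each member minus the mean log2 level of 10 macrophage markers in the same library (y axis), with circles for tumor cells, squares for TRMs, open triangles for MDMs and colours for genotype. In tumor cells Mmp12, Trem2 and Tyrobp lie in or near the range of the macrophage libraries and Gpnmb lies below it, whereas Cd9, Cd63, Lgals3, Fabp5 and Spp1 of KL tumor cells lie above it.

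In TRMs, Mmp12 and Spp1 rose in KLG4 and the receptor genes did not pass the test. Each rose about 3-fold, the 2 largest differences of the list. Of the 9 members 2 rose and 0 fell, in a table where 1.8% of 10990 genes were called and 1.36% were called higher. All but Tyrobp had a positive log2 difference, 8 of 9 against 78.4% of all genes, and 5 members had an unadjusted p under 0.05 with a higher level (25.5% of all genes). Both KLG4 libraries were above both KL libraries for 7 members (53.7% of all genes) and below for 1 (8.95%). The median member difference was 0.65 and the median of all genes was 0.38.

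Mmp12 in TRMs was at 40.2 and 47.2 RPKM in KLG4 and at 15.4 and 12.1 RPKM in KL. The fitted rise was 3.18-fold, or 1.67 ± 0.20 on the log2 scale (limma adjusted p = 0.036). Spp1 was at 631.6 and 971.9 RPKM in KLG4 and at 281.0 and 211.6 RPKM in KL. The fitted rise was 3.21-fold, or 1.68 ± 0.26 (adjusted p = 0.047). The groups were widely apart for both genes, and the KLG4 libraries of Spp1 differed by more than the KL ones. The Spp1 call was lost without KL replicate 1 (1.89, adjusted p = 0.067) and kept without each of the other libraries. Lgals3 was at 208.1 and 203.9 RPKM in KLG4 and at 182.3 and 169.5 RPKM in KL (0.23 ± 0.15, adjusted p = 0.339), a small difference without overlap.

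Trem2 in TRMs was at 21.4 and 22.9 RPKM in KLG4 and at 14.8 and 13.1 RPKM in KL. Both KLG4 values lay above both KL values, and the log2 difference of 0.67 ± 0.18 had a limma adjusted p of 0.096. Tyrobp was at 149.9 and 132.4 RPKM in KLG4 and at 150.1 and 169.3 RPKM in KL (-0.18 ± 0.16, adjusted p = 0.489), and the upper KLG4 value all but met the lower KL value. Gpnmb was at 218.2 and 121.7 RPKM in KLG4 and at 69.1 and 92.9 RPKM in KL, with a difference of 1.02 ± 0.31 (adjusted p = 0.110). KLG4 replicate 1 was the high library, and the adjusted p was 0.371 without it (0.60) and 0.026 without KLG4 replicate 2 (1.44).

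Cd63 in TRMs was at 337.6 and 298.7 RPKM in KLG4 and at 197.5 and 208.2 RPKM in KL (0.65 ± 0.15, limma adjusted p = 0.077). Cd9 was at 236.1 and 247.7 RPKM in KLG4 and at 209.9 and 228.2 RPKM in KL (0.14 ± 0.15, adjusted p = 0.544). The 2 tetraspanins were without overlap, Cd63 by a wide margin and Cd9 by a narrow one. Fabp5 was the most abundant member of the KL TRMs and second to Spp1 in the KLG4 ones, at 458.9 and 422.3 RPKM in KLG4 and at 376.9 and 429.3 RPKM in KL, where the groups overlapped (0.13 ± 0.16, adjusted p = 0.606).

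**Figure D3:**
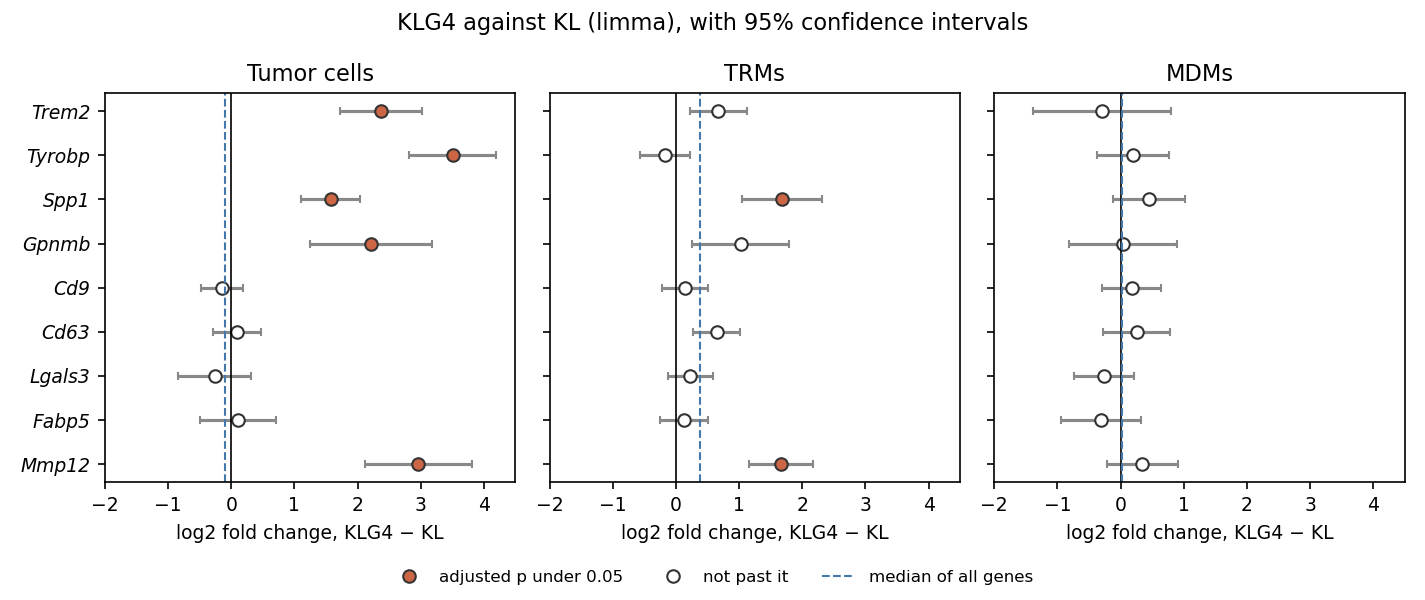
Log2 fold change of each member (rows) in KLG4 against KL by limma in the 3 populations, with bars for 95% confidence intervals, filled points for an adjusted p under 0.05 and a dashed line for the median of all genes tested. Filled points number 5 in tumor cells, 2 in TRMs and 0 in MDMs.

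The TRMs result depended on how libraries were scaled to each other. Mitochondrial transcripts, with 7 nuclear copies included, made up 2.95% and 5.78% of the KLG4 reads against 31.5% and 22.3% of the KL reads, and the macrophage markers were at a geometric level of 138.9 and 126.1 RPKM in KLG4 against 75.4 and 85.0 RPKM in KL, with Mrc1 and Csf1r called higher of the 10. Rescaled to reads outside mitochondrial genes, the median of all genes was 0.0017, the median member difference 0.26, and 0 of 9 members were called, as were 0.282% of all genes. Mmp12 then stood at 1.28 (limma adjusted p = 0.104), Spp1 at 1.29 (0.128), Gpnmb at 0.63, Trem2 at 0.28 and Cd63 at 0.26. Tyrobp (-0.57), Cd9 (-0.25), Fabp5 (-0.26) and Lgals3 (-0.16) were lower in KLG4 on that scale, and the last 3 thereby turned their direction. When recovered reads were fitted by limma-voom, the calls included Mmp12 (1.28, adjusted p = 0.0055) and Spp1 (1.28, adjusted p = 0.014), among 7.16% of all genes. Relative to the macrophage markers Mmp12 was at 0.94 and Spp1 at 0.96, where the median of all genes was -0.34 and neither was called (adjusted p = 0.068 and 0.106). Mmp12 and Spp1 were higher in KLG4 in each of the 15 other settings tried in TRMs.

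**Figure D4:**
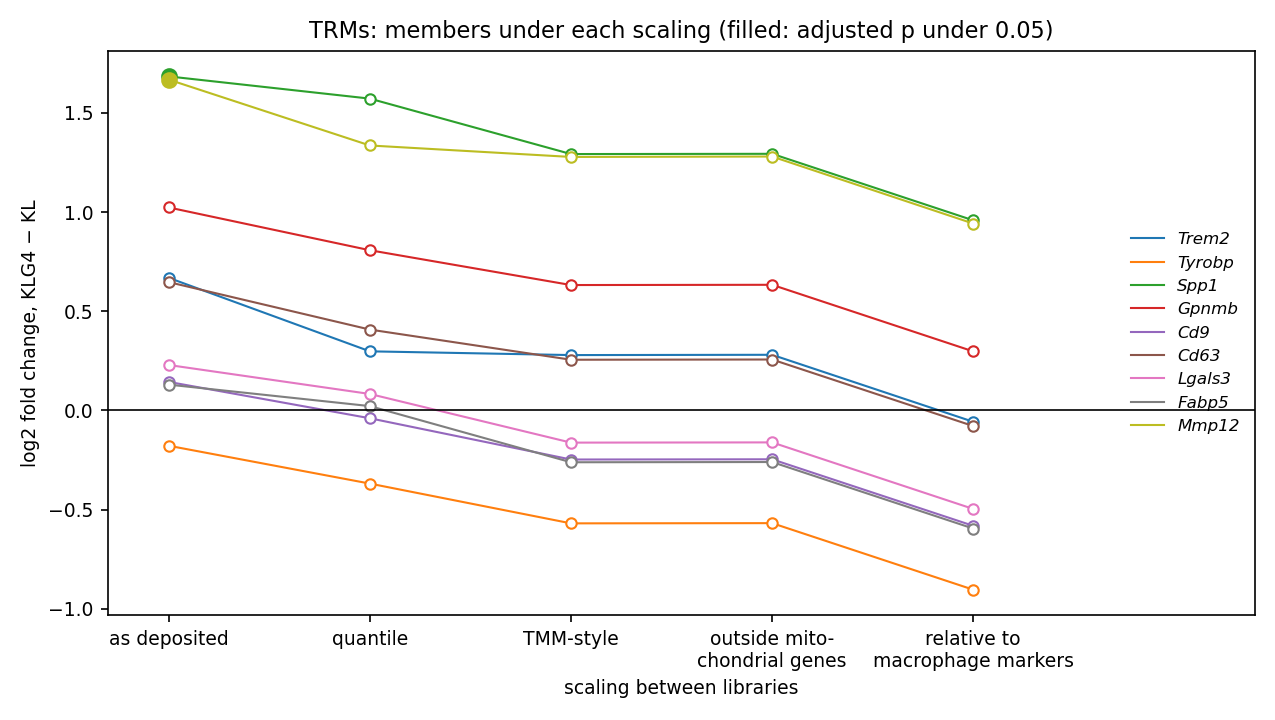
Log2 fold change of each member in TRMs (y axis) under 5 ways of scaling the libraries to each other (x axis), with filled points for a limma adjusted p under 0.05. Spp1 and Mmp12 stay above 0.9 throughout, whereas Cd9, Lgals3 and Fabp5 pass from above 0 to below 0. Trem2 and Cd63 fall just below 0 only relative to macrophage markers.

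Other genes of the TRMs bear on the same comparison. Of 7 epithelial genes tested 0 were called and 2 had a positive difference, with a median log2 difference of -2.49 and summed levels of 66.5 and 106.5 RPKM in KLG4 against 133.9 and 151.5 RPKM in KL. AT2 genes of the lung epithelium summed to 37.5 and 72.0 RPKM in KLG4 and to 175.5 and 185.6 RPKM in KL, with Sftpd and Sftpa1 called lower. Dendritic cell genes had a positive difference for 5 of 5 tested, with a median of 1.53, and 1 of them, Batf3, rose (1.40, limma adjusted p = 0.045), whereas 0 were called when rescaled to reads outside mitochondrial genes. Their summed level was 39.2 and 41.1 RPKM in KLG4 against 11.1 and 17.8 RPKM in KL. None of these genes is a member, and their part in the member differences was not tested.

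In MDMs, no member passed the test. No gene did either: 0 of 10475 were called by limma (0.0%), 706 genes had an unadjusted p under 0.05 (6.74%), and limma-voom also called 0, with 672 at an unadjusted p under 0.05. None of the 9 members had an unadjusted p under 0.05. Both KLG4 libraries were above both KL libraries for 5 members (25.4% of all genes) and below for 2 members (19.1%), and the median member difference was 0.17.

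Trem2 in MDMs was at 5.55 and 6.08 RPKM in KLG4 and at 4.86 and 10.5 RPKM in KL (log2 difference -0.29 ± 0.42, limma adjusted p = 0.809). The high KL value was that of replicate 2, the library that stood apart. Without that library the difference was 0.25 (adjusted p = 0.566), and without KL replicate 1 it was -0.84 (adjusted p = 0.037), in a fit that called 2682 genes. Tyrobp was at 258.7 and 258.9 RPKM in KLG4 and at 258.1 and 198.5 RPKM in KL (0.19 ± 0.22, adjusted p = 0.762), so 3 of the 4 libraries had nearly the same level.

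Spp1 in MDMs was at 447.6 and 354.7 RPKM in KLG4 and at 309.7 and 274.4 RPKM in KL. The groups did not overlap, and the difference of 0.45 ± 0.22 had a limma adjusted p of 0.679 and a 95% interval from -0.12 to 1.02. Mmp12 was at 7.38 and 7.49 RPKM in KLG4 and at 6.07 and 5.58 RPKM in KL (0.35 ± 0.21, adjusted p = 0.684). Both secreted genes leaned in the direction they had in TRMs, with smaller differences and intervals that include 0. Whether the differences of MDMs and TRMs are unequal was not tested, since the tables were normalized separately. Lgals3 was at 104.2 and 96.0 RPKM in KLG4 and at 120.3 and 118.6 RPKM in KL (-0.26 ± 0.18, adjusted p = 0.691), below in both libraries.

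Gpnmb in MDMs was at 59.3 and 43.8 RPKM in KLG4 and at 63.7 and 38.7 RPKM in KL, with the KL values outside the KLG4 values on both sides (0.04 ± 0.33, limma adjusted p = 0.976). Cd9 was at 162.1 and 168.6 RPKM in KLG4 against 150.7 and 142.6 RPKM in KL (0.17 ± 0.18), and Cd63 at 294.1 and 303.6 against 278.9 and 225.5 RPKM (0.25 ± 0.20). The tetraspanin groups did not overlap. Fabp5 was at 205.0 and 187.2 RPKM in KLG4 and at 205.5 and 288.2 RPKM in KL (-0.31 ± 0.24), with KL replicate 2 the highest library. Macrophage markers had a median difference of 0.11 over 10 genes, and 0 of them were called. Without KL replicate 2, 0 members were called in MDMs and the median member difference was 0.10.

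Across populations the members were highest in TRMs or MDMs, and most of them in TRMs. MDMs libraries held neutrophil genes at a sum of 10705 RPKM or more and macrophage markers at 2650 RPKM or less. Levels in MDMs are therefore not those of macrophages alone. The tables were normalized separately, so these levels are a description without a test. In KL, 6 of the 9 members had their highest mean in TRMs and 3 in MDMs, and in KLG4, 8 had it in TRMs and 1 in MDMs. Mitochondrial reads took their largest share in KL TRMs, and after rescaling to the reads outside them the counts were 8 and 1 in both genotypes. As deposited, tumor cells were lowest for each member in both genotypes. After the rescaling this held except for Lgals3 of KLG4, at a mean of 109.8 in tumor cells and 101.2 in MDMs, with overlap. Trem2, Gpnmb, Fabp5, Mmp12, Cd9 and Lgals3 were highest in TRMs in both genotypes without overlap with MDMs. Tyrobp was highest in MDMs in both, with a mean of 228.3 RPKM in KL against 159.7 RPKM in TRMs, and 258.8 against 141.1 RPKM in KLG4. After the rescaling the KL populations overlapped, at means of 239.8 and 218.5. Spp1 of KL was at a mean of 292.0 RPKM in MDMs and 246.3 RPKM in TRMs, and these neighbours overlapped. In KLG4 Spp1 was at 801.7 RPKM in TRMs and 401.1 RPKM in MDMs, without overlap. After the rescaling the KL means of Spp1 were 341.2 in TRMs and 307.2 in MDMs, still with overlap. Cd63 of KL was at 252.2 RPKM in MDMs and 202.8 RPKM in TRMs, but after the rescaling at 265.0 and 278.1, with overlap. In KLG4 the 2 populations overlapped as deposited (298.8 and 318.1 RPKM).

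The distance between populations varied widely among members. In KL the TRMs mean was 84.0 times the tumor cell mean for Gpnmb, 64.2 times for Trem2, 50.8 times for Mmp12 and 28.0 times for Tyrobp. Against each KL tumor cell library alone it was 140.0 and 60.0 times for Gpnmb, 72.1 and 57.9 times for Trem2, 82.7 and 36.7 times for Mmp12 and 38.6 and 21.9 times for Tyrobp, so the order among the first 3 is not settled. It was 5.24 times for Fabp5, 2.43 times for Spp1, 1.59 times for Cd9, 1.53 times for Lgals3 and 1.45 times for Cd63. Tumor cells and MDMs overlapped for Cd9 in KL and for Lgals3 in both genotypes. In KLG4 the TRMs mean was 37.5 times the tumor cell mean for Gpnmb, 16.3 times for Mmp12, 14.3 times for Trem2 and 2.22 times for Tyrobp. TRMs exceeded MDMs by 2.36 times in KL and 5.88 times in KLG4 for Mmp12, by 1.82 and 3.81 times for Trem2, and by 1.58 and 3.30 times for Gpnmb. The KL ratio of Trem2 was 2.87 against MDMs replicate 1 and 1.33 against replicate 2, the library that stood apart, and that of Gpnmb 1.27 and 2.09. Per counted exon length Fabp5 was the most abundant member of KL TRMs, at a mean of 403.1 RPKM, and Trem2 and Mmp12 were the least abundant, at 13.9 and 13.7 RPKM. If all reads came from the principal transcript, Trem2 would be at 63.3 and Mmp12 at 27.5 RPKM in the same libraries, so the gap between them, though not their order, rests on the gene model.

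Genes of the TREM2 and TYROBP pathway were described from lists of related genes. In tumor cells 9 of 12 signalling genes were called higher and 1 lower, among them the phosphatase Inpp5d (4.39 on the log2 scale), the sister adaptor Hcst (4.28), the kinase Syk (3.87) and Pik3cd (3.30). All 6 tested receptors that couple to TYROBP rose, with Trem3 at 4.60, Treml4 at 4.32, Cd300lb at 4.02 and Trem1, a receptor of neutrophils and monocytes, at 3.90. Of the TREM2 ligands, Apoe rose to 440.6 and 446.4 RPKM in KLG4 against 33.4 and 36.5 RPKM in KL (3.66, limma adjusted p = 7.75e-05), and Clu fell by 0.96. All of these counts stand beside the 20.6% of all genes called higher in tumor cells. Inpp5d, Hcst, Pik3cd, Treml4 and Cd300lb reached the filter on low values through the KLG4 libraries alone. Without that filter 9 signalling genes and 6 receptors were called higher, as were 21.5% of all genes. With the KLG4 pair averaged, where 11.5% of all genes were called higher, 5 signalling genes and 6 receptors were, Apoe was still called and Clu was not. In TRMs 0 of 12 signalling genes, 0 of 6 receptors and 0 of 2 ligands were called, and 11 of the 12 signalling genes had a positive difference (78.4% of all genes). In MDMs 0 genes of any of the 10 lists were called.

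Receptors and relatives of the secreted members were spread in both directions in tumor cells. Of 9 osteopontin and galectin-3 receptor genes 4 rose and 4 fell, with the integrin Itga4 at 3.46, the engulfment kinase Mertk at 2.04, Itgb5 at 1.79 and Itgb3 at -1.19. Of 11 other matrix metalloproteinases and inhibitors 8 rose and 1 fell, with Mmp9 at 4.61, Mmp2 at 4.04, Mmp19 at 3.14 and Mmp8 at 3.07. As background, fibroblasts make Mmp2 and neutrophils store Mmp8 and Mmp9, and macrophages can also express Mmp2 and Mmp9. Among 9 other tetraspanins, the leukocyte genes Cd37 (3.42) and Cd53 (2.12) were among 3 that rose, and the epithelial gene Tspan8 (-1.19) and Cd151 (-0.78) fell. Of 5 other galectins only Lgals1 (1.89) was called, and 0 of 3 tested fatty acid-binding proteins were called. For comparison, 20.6% of all genes were called higher and 19.6% lower, and 11.5% higher with the KLG4 pair averaged. Itga4, Mertk, Mmp9, Mmp19 and Cd37 reached the filter on low values through the KLG4 libraries alone, and without it each of these lists kept its counts. With the KLG4 pair averaged, 2 osteopontin and galectin-3 receptors, 6 metalloproteinases and inhibitors, 2 tetraspanins and 1 galectin were called higher and 0 lower. In TRMs 0 genes were called in each of these lists, and all 7 tested osteopontin and galectin-3 receptors had a positive difference, as did 78.4% of all genes.

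The other lipid-associated macrophage genes, 23 in number, were also listed. In TRMs 3 of 23 rose and 0 fell, where 1.36% of all genes were called higher. A positive difference was found for 22 of the 23 (78.4% of all genes) and an unadjusted p under 0.05 with a higher level for 18 (25.5%), and the median was 0.68 against 0.38 for all genes. Itgax, the integrin CD11c, stood at 181.6 and 190.7 RPKM in KLG4 against 58.3 and 73.9 RPKM in KL (1.50, limma adjusted p = 0.035). The cholesterol exporter Abca1 was at 4.58 and 5.15 RPKM against 0.724 and 0.897 RPKM (2.45, adjusted p = 0.043). In TRMs Abca1 reached the filter on low values through the KLG4 libraries alone, where it is high. The scavenger receptor and chemokine Cxcl16 was at 50.1 and 69.5 against 24.0 and 23.0 RPKM (1.32, adjusted p = 0.047). Rescaled to reads outside mitochondrial genes, 18 of the 23 had a positive difference, 0 were called and the median was 0.29. In tumor cells 12 of the 23 rose and 2 fell (20.6% and 19.6% of all genes), with Apoe at 3.66, Itgax at 3.59, Abca1 at 2.92 and Abcg1 at 2.43, and with the KLG4 pair averaged 8 were called higher (11.5% of all genes) and 1 lower. In MDMs 8 of the 23 had a positive difference and the median was -0.14.

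**Figure D5:**
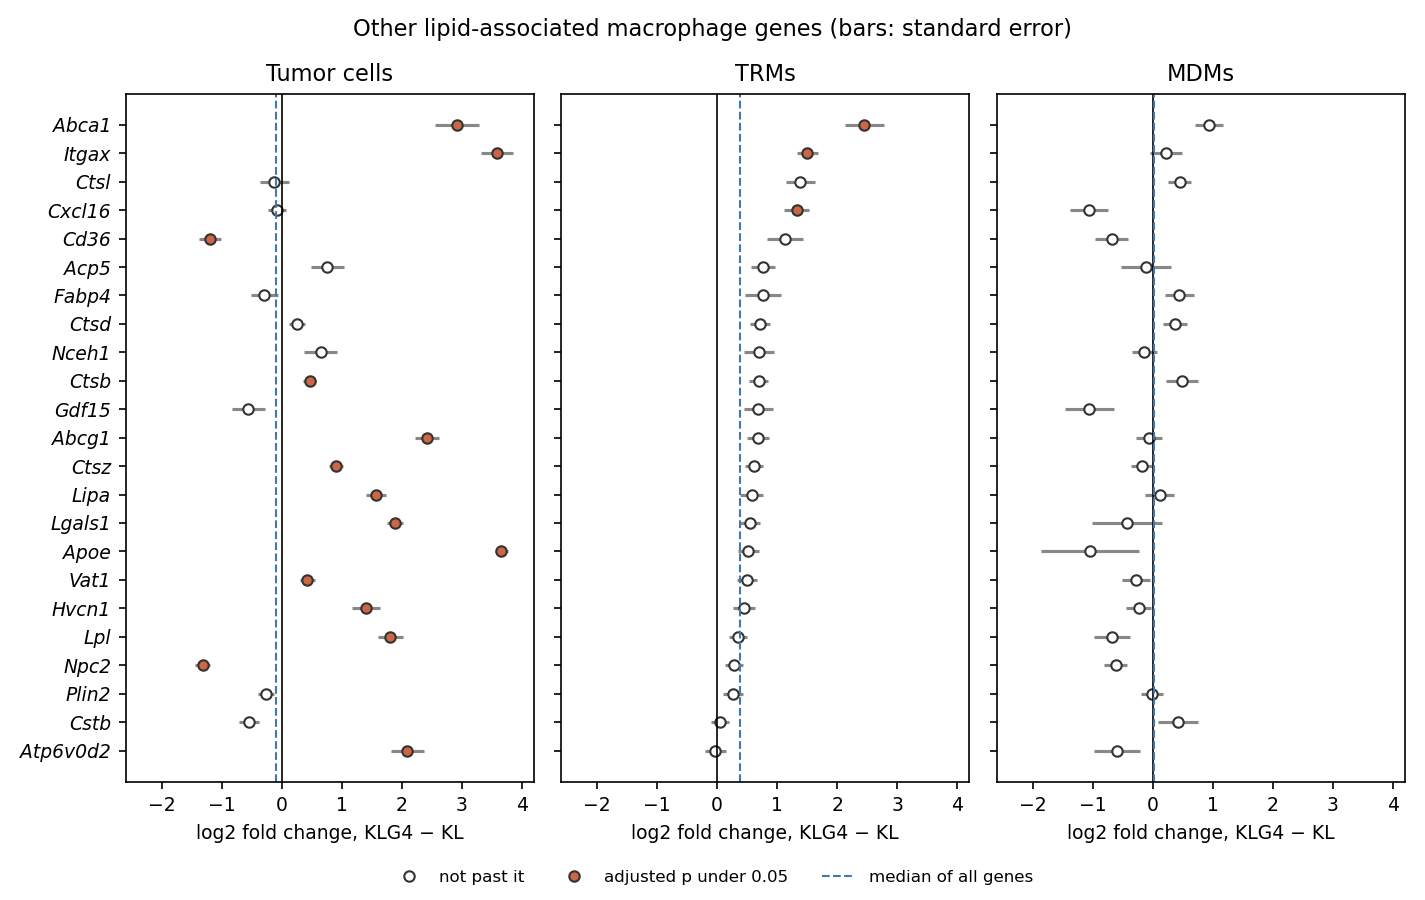
Log2 fold change in KLG4 against KL of 23 other lipid-associated macrophage genes (rows, in the order of their TRMs value) in the 3 populations, with bars for standard errors, filled points for a limma adjusted p under 0.05 and a dashed line for the median of all genes. Filled points number 14 in tumor cells, 3 in TRMs and 0 in MDMs.

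Transcription factors of macrophages were also listed. In tumor cells their counts stand beside 20.6% of all genes called higher and 19.6% lower, and 11.5% higher with the KLG4 pair averaged. In tumor cells 7 of 11 rose and 0 fell, with Spi1 at 3.51, Tfec at 2.60 and Mitf at 1.62, and 4 were called with the KLG4 pair averaged. Tfec and Mitf reached the filter on low values in tumor cells through the KLG4 libraries alone, and without it 6 factors were called higher. In TRMs Cebpb rose (1.79, limma adjusted p = 0.047), and 0 genes of the list were called when rescaled to reads outside mitochondrial genes. The list median in TRMs as deposited was 0.44 against 0.38 for all genes.

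The genes whose log2 profiles over the 12 libraries came closest to each member were found by the root mean square distance of centred profiles among 5333 genes. Nearest to Trem2 were Tfec (0.27), a factor of the MITF family, Clec4a2 (0.27) and the scavenger receptor Msr1 (0.28). Nearest to Tyrobp were Spi1 (0.18), Gpsm3 (0.24) and Coro1a (0.24), genes of leukocytes. Nearest to Mmp12 were Clec4a3 (0.33), Itgax (0.35) and Plcb2 (0.41), and nearest to Gpnmb were Ccl6 (0.40), Mpeg1 (0.40) and Ctss (0.55). Spp1 was nearest to Pik3r1 (0.35), Sh3kbp1 (0.44) and Ifngr1 (0.45). The members that differed little between populations had nearest genes of broad expression, namely Gtf2h1, Trmt6 and Hmox2 for Cd9, Atp1b3, Brd9 and Atp6ap2 for Cd63, and Vdac2, Lamp1 and Hat1 for Lgals3. Those of Fabp5 were Rbm3 (0.21), Hexa (0.26) and the lipid droplet protein gene Plin2 (0.27). The 12 points share libraries, depth and cell mixture, and a small distance is a description only.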

How the data were processed

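Per the labels, total RNA of FACS-sorted cells was poly(A)-selected and sequenced as paired ends from kits that do not mark strand. The authors trimmed with Trim Galore 0.6.4, aligned with HISAT2 2.0.5 to GRCm38 and counted with featureCounts 2.0.0, as the submitters' processing notes and the study's methods give it. The authors deposited RPKM in a table per population, beside log2 fold changes, mean log2 expression, p-values, adjusted p-values and an F score of their own comparison, none of which was used here. RPKM multiplied by gene length gave whole reads, within 0.05 of a whole number, for 100% of the genes below 2000 reads that had a length (100% of genes in tumor cells, 95.7% in TRMs and 93.9% in MDMs), from which depth was recovered. Counts below 30 were odd for 17.4% to 32.5% of genes, fewer than independent reads give, so counting error exceeds what read totals imply.

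Tests were run within a table by limma 3.58.1 (R 4.3.3, two-sided, mean-variance trend) on log2(RPKM + 0.1), for genes reaching 1 RPKM in 2 or more of 4 libraries, with Benjamini-Hochberg adjustment over the table. Fold changes are on that scale, which understates those of low genes. Limma-voom on recovered reads was an alternative. Named were all members, up to 4 called genes per list and population with the largest change, and the 3 nearest genes per member. Xist and Eif2s3y were named after their values were seen. The members and lists were chosen with earlier results of these data known. Same-numbered replicates did not deviate together (r of 0.019, -0.060 and 0.054 in tumor cells, TRMs and MDMs). Of 17 samples 5 were not analysed here. A shared allele of both genotypes and a transcription factor of the lists are not reported here.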

Additional observations from a re-analysis of the deposited data

Results flagged for a closer look

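Of 27 comparisons of a member between 2 populations, 5 had both KLG4 libraries above both KL libraries in the one population and below in the other. These differences between populations were not tested, because the tables were normalized separately. Tyrobp differed by 3.69 on the log2 scale between tumor cells (3.51) and TRMs (-0.18), and by -0.37 between TRMs and MDMs (0.19). Cd9 differed by -0.29 between tumor cells (-0.14) and TRMs (0.14), and by -0.32 between tumor cells and MDMs (0.17). Lgals3 differed by 0.49 between TRMs (0.23) and MDMs (-0.26). Apart from Tyrobp in tumor cells, none of these single-population differences passed the limma threshold, and the TRMs values of Cd9 and Lgals3 turned sign when rescaled to reads outside mitochondrial genes.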

How the results depend on the processing

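With 2 libraries per group, precision rests on the spread between libraries, and values of Trem2 and Mmp12 in KL tumor cells rest on under 100 reads each. Leaving out a library leaves a group with 1 sample, which is assumed to vary like the other group. Over the members and settings, 123 of 141 values in tumor cells, 106 of 135 in TRMs and 130 of 135 in MDMs kept direction and side of the threshold. The causes of the changes below were not tested beyond what the settings themselves alter.

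In tumor cells the main 5543 called genes became 3284 for genes averaging 5 RPKM or more, 13005 relative to macrophage markers, 1923 with the KLG4 pair averaged (chosen after seeing the data) and 1927 to 7372 without a library. Called members numbered 2 instead of 5 among genes averaging 5 RPKM or more, which Trem2, Gpnmb and Mmp12 do not reach, and 4 to 8 without a library. Scaling to macrophage markers moves the median of all genes from -0.09 to -3.11 and so fixes most signs. The sign then turned for Trem2 (-0.64), Spp1 (-1.44), Gpnmb (-0.80), Mmp12 (-0.054), Cd63 (-2.92) and Fabp5 (-2.91). On that scale 6 members were called lower by limma and 0 higher, among 13005 called genes. Without a library Cd63 ranged from -0.061 to 0.25, Lgals3 from -0.59 to 0.066 and Fabp5 from -0.24 to 0.46.

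In TRMs the main 198 called genes became 490 and 122 with pseudocounts of 1 and 0.01, 120 without a filter, 557 for genes averaging 5 RPKM or more, 60 with quantile normalization, 30 with TMM-style scaling, 31 rescaled to reads outside mitochondrial genes, 95 relative to macrophage markers, 12 without a trend, 763 by limma-voom, 470 with a replicate block and 113 to 2382 without a library. Called members numbered 1 instead of 2 with a pseudocount of 0.01 or no filter, 0 with quantile normalization, TMM-style scaling, rescaling, macrophage markers or no trend, and 1 to 3 without a library. Signs turned for Cd9 with quantile normalization (-0.040), TMM-style scaling (-0.25), rescaling (-0.25), macrophage markers (-0.58) and voom (-0.25), for Lgals3 with TMM-style scaling, rescaling and voom (-0.16 each) and macrophage markers (-0.50), for Fabp5 likewise (-0.26 each, and -0.60), and for Trem2 (-0.057) and Cd63 (-0.079) relative to macrophage markers. The replicate block, with numbers that do not pair the samples, gave 470 calls in TRMs and changed no member call.

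In MDMs 0 to 2682 genes and 0 to 1 members were called without a library, the upper values without KL replicate 1. Trem2 ranged from -0.84 to 0.25 and Gpnmb from -0.32 to 0.40, and Gpnmb was -0.020 rescaled to reads outside mitochondrial genes. With only Ptprc, Csf1r and Adgre1 as the reference, the median relative member level was 2.81 in KLG4 and 6.21 in KL tumor cells (1.82 and 4.73 with 10 markers), 2.27 and 2.99 in TRMs (0.64 and 1.14), and 1.93 and 2.17 in MDMs (1.20 and 0.97).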
